A study of Mus musculus with 10 samples.

Results

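The genes described here are 39 listed genes of the lysosome: 11 glycosidases, 6 sulfatases, 5 lipid hydrolases and other soluble enzymes, 3 lipid transfer and activator proteins, 7 membrane proteins, 5 subunits of the proton pump and 2 transcription factors. They were found by symbol in the deposited expression table, and each gene was represented by the probe set annotated to that gene alone that had the highest mean signal over all arrays. All 39 were measured, out of 19938 genes in the table, and Arsb was the only member with more than 1 such probe set. RNA was profiled on 10 Affymetrix arrays from immortalized mouse macrophages, either wild-type B6 cells or cells of a Toll-like receptor 9 knockout, TLR9KO. The receptor senses DNA in endosomes. The 4 groups were 3 arrays of unstimulated wild-type cells, 3 arrays of wild-type cells given β-1,3 glucan beads, 2 arrays of unstimulated TLR9KO cells and 2 arrays of TLR9KO cells given the beads. The beads carry a sugar of fungal cell walls and were added at 20 per cell for 4 h. The labels name no more than 1 line of each genotype and do not state how either was immortalized, so the knockout and other differences between the lines cannot be told apart. Nothing in them says whether the arrays of a group are separate cultures, and the p-values then reflect only how much these arrays vary, which may be technical. The question put to these genes was whether their RNA differed between the lines or changed with the beads.

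Lysosomes break down material that a macrophage takes up or recycles, with hydrolases that work at the low pH set by a proton-pumping ATPase. Most of the soluble enzymes reach the compartment through mannose 6-phosphate receptors, and their products leave through transporters in a membrane lined with heavily glycosylated proteins such as LAMP1 and LAMP2. The related transcription factors TFEB and TFE3 bind a short E-box sequence, the CLEAR element, found in front of many lysosomal genes, and inherited loss of a single enzyme of the set causes a lysosomal storage disease.

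The sequences in front of the genes were examined first, since the CLEAR element is what many of the members are known to share. A higher share among them than among all genes could therefore be foreseen and is given as a description. RefSeq promoter windows for GRCm38.p6, 250 bases before to 50 bases after each gene start, were found for 34 of the 39 members; Asah1, Galns, Npc1, Atp6v1b2 and Atp6v1h had no window. The E-box core CACGTG, which reads the same on both strands, lay in a window of 11 of the 34 members (32.4%), against 1483 of 15614 tested genes with a window (9.5%). The longer GTCACGTG, or CACGTGAC on the other strand, which contains the core, lay in 9 of the 34 (26.5%), against 541 of the 15614 (3.46%). Among other lysosome genes with a window, 17 of 68 held CACGTG and 10 held the longer form. The 6 stretches below show the core in the member with the most copies, Lamp1, with copies starting at -61, -45, -28 and -15 from the gene start, in Mcoln1 and Cln3 with 2 copies each, in Sgsh, and in Atp6v0d1 and Gaa, which differed between the lines. Each is printed 5′ to 3′ on the strand of its gene, with the E-box core in capitals and the GTCACGTG or CACGTGAC form in capitals where it was found.
Lamp1, chr8:13159080-13159171, plus strand: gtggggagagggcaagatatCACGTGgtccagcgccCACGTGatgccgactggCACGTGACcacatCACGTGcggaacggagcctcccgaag
Mcoln1, chr8:3500428-3500499, plus strand: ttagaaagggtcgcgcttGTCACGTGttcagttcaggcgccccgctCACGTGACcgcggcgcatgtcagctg
Cln3, chr7:126583332-126583405, minus strand: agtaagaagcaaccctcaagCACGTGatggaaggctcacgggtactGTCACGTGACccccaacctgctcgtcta
Sgsh, chr11:119355514-119355559, minus strand: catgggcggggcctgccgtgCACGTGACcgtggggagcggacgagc
Atp6v0d1, chr8:105566042-105566087, minus strand: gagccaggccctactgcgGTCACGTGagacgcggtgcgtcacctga
Gaa, chr11:119267803-119267848, plus strand: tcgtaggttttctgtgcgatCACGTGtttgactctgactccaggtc
The same letters were found in front of Arsa, Gla, Glb1 and Naglu in the longer form and in front of Atp6v1a as the core alone. Neither form was found in the windows of the other 23 members, Arsg and Ids among them. A match describes the letters and not binding, and no binding was measured.

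All values below are the deposited log2 signals, in which a difference of 1 is a doubling, and signals of different genes were not set against each other because they come from different probes. Every member lay above the median of all genes in each of the 10 arrays. The macrophage label was checked with 10 marker genes: none lay below the 25th percentile and 8 or 9 of them, depending on the group, lay above the 75th percentile in all arrays of the group. No marker of dendritic cells (6 measured), granulocytes (7), lymphocytes (6) or fibroblasts (7) was above the 75th percentile throughout a group or passed in a comparison of the lines. The macrophage markers themselves differed between the lines: their mean was 10.19 to 10.26 in unstimulated wild-type arrays and 10.68 to 10.81 in unstimulated TLR9KO arrays, with Cd14, Fcgr1, Adgre1 and Csf1r higher and Mertk lower in TLR9KO. Their part in the results below was not tested. The targeted gene, Tlr9, read 7.32, 6.91 and 7.25 in unstimulated wild-type arrays, 7.03, 7.21 and 7.44 with beads, 7.44 and 7.62 in unstimulated TLR9KO arrays and 7.35 and 7.31 with beads. The position of its probes relative to the deleted part is not known, so these values check nothing about the knockout. The third wild-type bead array stood apart from the rest. Its mean correlation with the other arrays of its group was 0.973, against 0.985 to 0.997 for the other arrays, and the median signal of the members was 9.12 in it, against 9.50 to 9.96 elsewhere. It was the lowest of its group in 35 of the 39 members, with a median of -0.35 against its group mates, and the 2232 genes with a mean signal of at least 9 had a median of -0.35 as well. Results for the members as a set, and the calls that changed, are therefore given with and without it. Other values include all arrays unless stated.

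Lysosomal genes differed between the lines in both directions, and most of them did not pass the test. Among unstimulated cells 9 of the 39 members (23.1%) passed the test, limma's moderated test with the Benjamini-Hochberg adjusted p under 0.05 over all 19938 genes. The lower ones were Arsg, Atp6v0d1, Gaa, Gusb and Neu1, and the higher ones Ids, Npc2, Tfe3 and Atp6ap1. Of all genes, 8.25% passed, 3.79% as higher and 4.46% as lower. Among the 10776 genes that pass a filter on low signal, a mean of at least 6, as every member does, 16.4% passed when only those genes were tested. The difference between the members' share and these shares was not tested. Arrays of the lines did not overlap for 11 members that were higher and 14 that were lower in TLR9KO, against 17.7% and 21.1% of all genes. With beads, 8 members passed (20.5%), 3 higher and 5 lower, against 7.22% of all genes, 3.82% as higher and 3.4% as lower, and 13.9% of the genes that pass the filter. With beads, 10 members were higher and 9 lower without overlap, against 11.3% and 12.3% of all genes. The median difference over the members was -0.01 without and 0.01 with beads, against 0.02 and -0.01 over all genes, while the median size of the difference was 0.24 in both comparisons, against 0.11 and 0.10. These sizes and the shares without overlap were taken over all genes, those of low signal included. They were not computed for the genes that pass the filter, so they are no comparison at a like signal. The heat map of all members shows each array against the unstimulated wild-type mean.

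**Figure D1:**
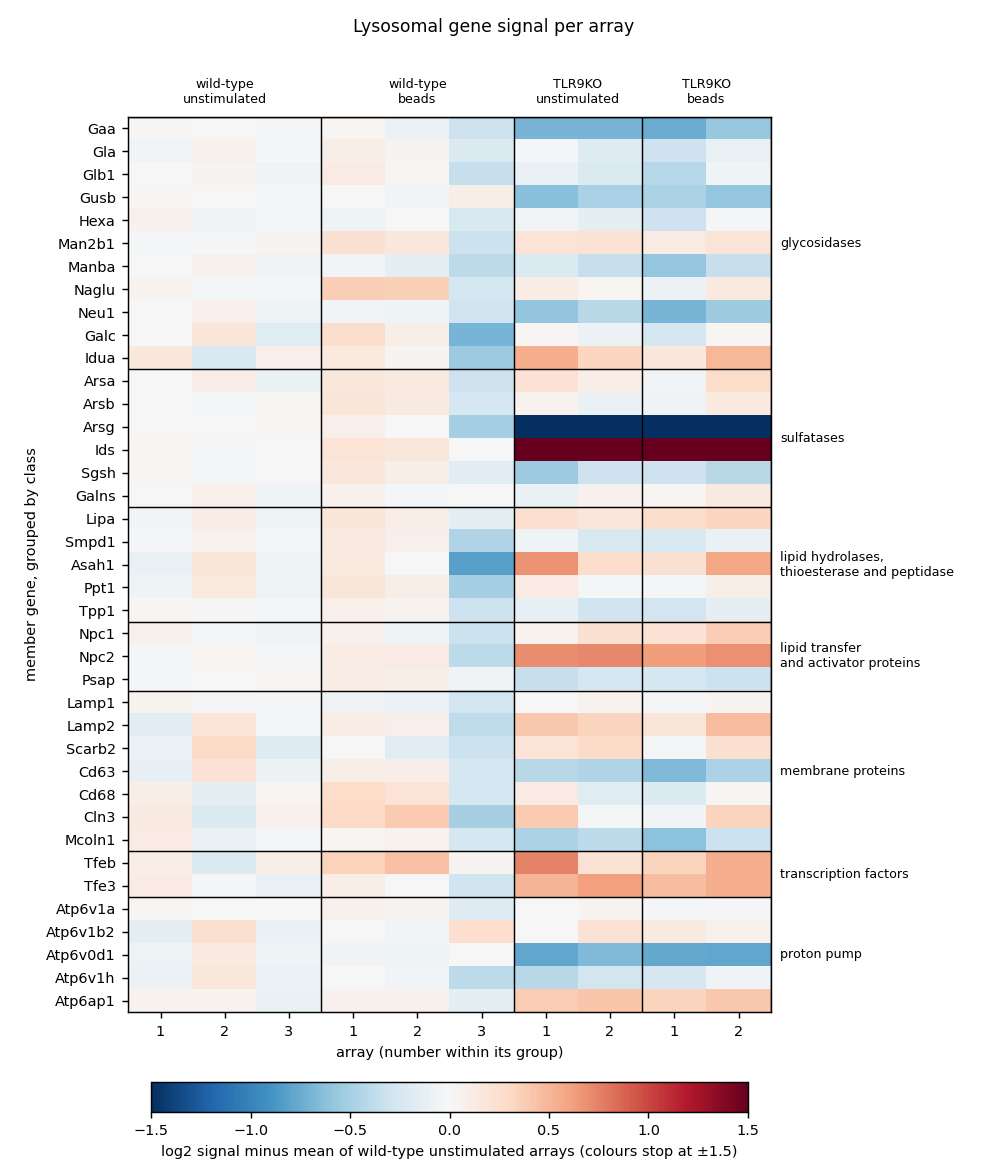
Log2 signal of each of the 39 members (rows, by class) in each of the 10 arrays (columns, by group), minus the mean of the 3 unstimulated wild-type arrays, with colours stopping at ±1.5. Arsg and Ids form the darkest rows across the 4 TLR9KO arrays, and the third wild-type bead array is lower than its group mates in 35 of the 39 rows.

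Of the glycosidases, which cut sugars from glycans, glycolipids and glycogen, 3 of 11 were lower in TLR9KO cells and none passed as higher, without beads and with them. Gaa encodes acid alpha-glucosidase, which degrades glycogen and is deficient in Pompe disease. Its signal was 10.64, 10.62 and 10.60 in unstimulated wild-type arrays and 9.92 in each of the 2 unstimulated TLR9KO arrays. After beads it read 10.65, 10.53 and 10.31 in wild-type arrays and 9.88 and 10.05 in TLR9KO arrays. Every TLR9KO array lay below every wild-type array. The difference was -0.69 ± 0.11 (SE, adjusted p = 0.00493) without beads and -0.53 ± 0.11 (adjusted p = 0.0205) with beads. Gusb encodes beta-glucuronidase, which removes glucuronic acid from glycosaminoglycans. It read 11.46, 11.45 and 11.43 in unstimulated wild-type arrays, 11.44, 11.40 and 11.53 with beads, 10.82 and 10.95 in unstimulated TLR9KO arrays and 10.96 and 10.87 with beads. The lines were apart in all arrays, by -0.56 ± 0.09 (adjusted p = 0.00479) without beads and -0.54 ± 0.09 (adjusted p = 0.00577) with beads. Neu1 encodes the lysosomal sialidase. Its signal was 8.57, 8.65 and 8.50 in unstimulated wild-type arrays, 8.53, 8.50 and 8.27 with beads, 7.99 and 8.15 in unstimulated TLR9KO arrays and 7.87 and 8.04 with beads. It was lower in TLR9KO, with differences of -0.50 ± 0.12 (adjusted p = 0.0264) without beads and -0.48 ± 0.12 (adjusted p = 0.0370) with beads, again with no overlap.

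These 3 calls depended on single arrays. The Gaa call was lost without either unstimulated TLR9KO array (adjusted p = 0.0553 and 0.0516), and with beads without either TLR9KO bead array (0.214 and 0.0736) or without the first or the second wild-type bead array (0.0601 and 0.0721). The Gusb call was lost without the first unstimulated TLR9KO array (0.0702), and with beads without the second TLR9KO bead array (0.0843). The Neu1 call was lost without any array of either unstimulated group (0.0624 to 0.238), and with beads without any array but the third wild-type bead array (0.0564 to 0.318). The other 8 glycosidases, Gla, Glb1, Hexa, Man2b1, Manba, Naglu, Galc and Idua, ranged from -0.28 for Manba to 0.44 for Idua without beads and from -0.27 to 0.44 with beads. Idua, alpha-L-iduronidase, had the largest of these differences but also a wide spread (0.44 ± 0.22, adjusted p = 0.358 without beads, and 0.380 with beads). Hexa, the alpha subunit of beta-hexosaminidase, differed by -0.10 and -0.07, and Glb1, beta-galactosidase, by -0.16 and -0.18, and none of these passed. Without beads, Glb1, Man2b1, Manba and Idua did not overlap between the lines, and with beads Idua did not.

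The largest differences of the set, in both directions, were in the sulfatases, which remove sulfate groups so that the next enzyme can act. Arsg encodes arylsulfatase G, a sulfatase of heparan sulfate breakdown. It was at 9.41, 9.42 and 9.45 in unstimulated wild-type arrays and at 6.23 and 6.23 in unstimulated TLR9KO arrays. After beads the signal was 9.51, 9.43 and 8.93 in wild-type arrays and 6.23 and 6.29 in TLR9KO arrays. All 4 TLR9KO values were close to the median of all genes in their arrays, which was 6.06 to 6.19, whereas the wild-type values lay above the 75th percentile in all 6 arrays. The difference was -3.20 ± 0.15, or 9.18-fold lower in TLR9KO (adjusted p = 3.72e-06), without beads and -3.03 ± 0.15, or 8.16-fold lower (adjusted p = 5.21e-06), with beads.

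Ids, on the other hand, was higher in the knockout line. It encodes iduronate 2-sulfatase, which acts on heparan and dermatan sulfate and is deficient in Hunter disease. Its signal was 6.61, 6.56 and 6.58 in unstimulated wild-type arrays and 8.40 and 8.30 in unstimulated TLR9KO arrays. The bead arrays read 6.79, 6.75 and 6.59 for wild-type and 8.09 and 8.30 for TLR9KO cells. No TLR9KO value overlapped a wild-type value. The difference was 1.77 ± 0.10, or 3.40-fold (adjusted p = 9.29e-06), without beads and 1.48 ± 0.10, or 2.79-fold (adjusted p = 3.15e-05), with beads. Arsg and Ids passed under all 19 alternative settings in both comparisons. Of the other 4 sulfatases, Sgsh, which encodes the heparan N-sulfatase, was the nearest to the threshold, at 8.29, 8.23 and 8.26 in unstimulated wild-type arrays and 7.72 and 7.95 in unstimulated TLR9KO arrays. It had no overlap in either comparison, with differences of -0.43 ± 0.12 (adjusted p = 0.0625) and -0.39 ± 0.12 (0.0959). Without the third wild-type bead array Sgsh passed in both, with adjusted p of 0.00611 and 0.00472. Arsa, Arsb and Galns differed by -0.02 to 0.16 in the 2 comparisons and did not pass, and among them only Arsa without beads had no overlap between the lines.

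**Figure D2:**
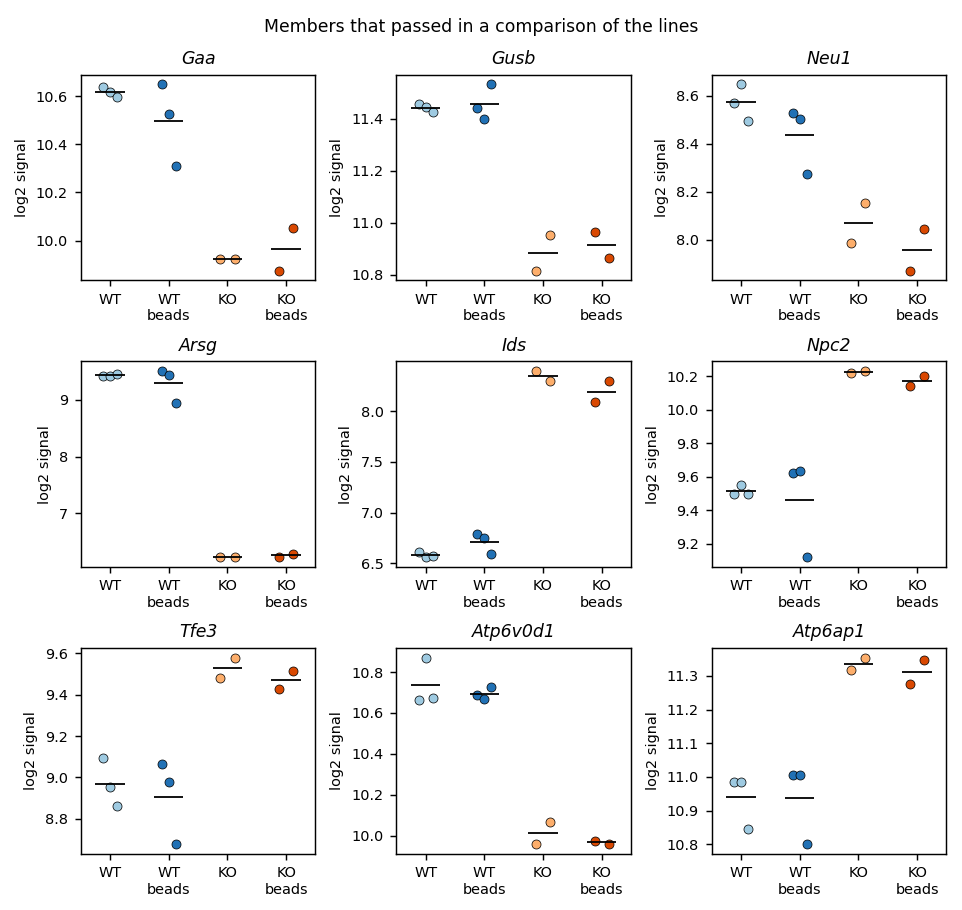
Log2 signal of the 9 members that passed in a comparison of the lines, each point an array and each line a group mean, for wild-type (WT, blue) and TLR9KO (KO, orange) cells without and with beads. Each panel has its own vertical range, which does not start at 0, and no TLR9KO point overlaps a wild-type point of any panel.

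None of the 5 lipid hydrolases and other soluble enzymes, Lipa, Smpd1, Asah1, Ppt1 and Tpp1, passed in either comparison. The largest difference was in Asah1, acid ceramidase, at 9.40, 9.69 and 9.45 in unstimulated wild-type arrays and 10.19 and 9.77 in unstimulated TLR9KO arrays. In the bead arrays it was at 9.66, 9.51 and 8.69 for wild-type and at 9.73 and 10.09 for TLR9KO cells. The TLR9KO arrays lay above the wild-type arrays in both comparisons, but the spread was wide: the differences were 0.47 ± 0.27 (adjusted p = 0.482) and 0.62 ± 0.27 (adjusted p = 0.288). Lipa, the acid lipase that frees cholesterol and fatty acids from lipoprotein lipids, was 11.77, 11.92 and 11.75 in unstimulated wild-type arrays, 12.00, 11.91 and 11.68 with beads, 12.05 and 11.98 in unstimulated TLR9KO arrays and 12.07 and 12.14 with beads. Its differences of 0.20 and 0.24 did not pass, and neither did those of Tpp1, a tripeptidyl peptidase, at -0.21 and -0.15, Smpd1, acid sphingomyelinase, at -0.15 and -0.08, or Ppt1, a palmitoyl-protein thioesterase, at 0.06 and 0.11.

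Among the 3 genes that move lipids or activate lipid hydrolases, Npc2 was higher in TLR9KO cells. It encodes the soluble protein that hands cholesterol to the membrane protein NPC1. Npc2 read 9.50, 9.55 and 9.50 in unstimulated wild-type arrays, 9.62, 9.64 and 9.12 with beads, 10.22 and 10.23 in unstimulated TLR9KO arrays and 10.14 and 10.20 with beads. The lines did not overlap, and the difference was 0.71 ± 0.15 without beads (adjusted p = 0.0174) and 0.71 ± 0.15 with beads (adjusted p = 0.0188). The call was lost without any array of either unstimulated group (adjusted p of 0.0521 to 0.130), and with beads without either TLR9KO bead array (0.110 and 0.159). Its partner Npc1 differed less, by 0.14 ± 0.13 (adjusted p = 0.817) without beads and by 0.40 ± 0.13 (adjusted p = 0.116) with beads. Psap, the precursor of the saposins that help enzymes reach sphingolipids, was 12.60, 12.63 and 12.64 in unstimulated wild-type arrays and 12.28 and 12.36 in unstimulated TLR9KO arrays, and 12.74, 12.71 and 12.58 against 12.36 and 12.31 with beads. Those arrays did not overlap, yet the differences of -0.31 ± 0.09 (adjusted p = 0.0726) and -0.34 ± 0.09 (adjusted p = 0.0518) missed the threshold. Without the third wild-type bead array Psap passed in both comparisons, with adjusted p of 0.0140 and 0.00614.

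Of the 7 membrane proteins none passed. Cd63, a tetraspanin of late endosomes and lysosomes, had the largest difference, at 10.68, 11.02 and 10.72 in unstimulated wild-type arrays and 10.39 and 10.36 in unstimulated TLR9KO arrays. Bead arrays were at 10.89, 10.91 and 10.55 for wild-type and at 10.15 and 10.33 for TLR9KO cells. It was lower in every TLR9KO array, with differences of -0.43 ± 0.15 (adjusted p = 0.126) and -0.54 ± 0.15 (adjusted p = 0.0590). Mcoln1, the calcium channel TRPML1, also had no overlap, with differences of -0.43 ± 0.13 (adjusted p = 0.0932) and -0.40 ± 0.13 (adjusted p = 0.131). Without the third wild-type bead array both passed in both comparisons, with adjusted p of 0.0187 and 0.00317 for Cd63 and 0.0143 and 0.00992 for Mcoln1. With beads, Cd63 also passed without the second unstimulated wild-type array (0.0499). Of the structural proteins of the membrane, Lamp1 differed by 0.02 and 0.16 and Lamp2 by 0.37 and 0.38 (adjusted p = 0.307 and 0.319). Lamp2 was higher in every TLR9KO array than in the wild-type arrays of the same comparison, and Lamp1 was so with beads. Scarb2, the receptor that carries glucocerebrosidase to the lysosome, differed by 0.24 and 0.27 with overlap in both comparisons. Lamp2 passed among unstimulated cells without the third wild-type bead array (adjusted p = 0.0494). Cln3, the Batten disease protein, differed by 0.19 and 0.08, and Cd68, a macrophage protein of late endosomes, by -0.03 and -0.17, with overlapping groups in both comparisons, and neither passed.

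In the proton pump, Atp6v0d1 was lower and Atp6ap1 higher in the knockout line, while the other 3 subunits did not pass. Atp6v0d1 encodes the d subunit that couples the catalytic sector to the membrane sector in most tissues. It was 10.66, 10.87 and 10.67 in unstimulated wild-type arrays and 9.96 and 10.07 in unstimulated TLR9KO arrays. Wild-type bead arrays read 10.69, 10.67 and 10.73, and TLR9KO bead arrays 9.97 and 9.96. The lines lay well apart, by -0.72 ± 0.10 (adjusted p = 0.00151) and -0.73 ± 0.10 (adjusted p = 0.00152), and the gene passed under all 19 alternative settings in both comparisons. Atp6ap1, an accessory subunit of the pump, was 10.99, 10.99 and 10.85 in unstimulated wild-type arrays, 11.00, 11.01 and 10.80 with beads, 11.32 and 11.35 in unstimulated TLR9KO arrays and 11.27 and 11.35 with beads. It did not overlap between the lines, but passed only without beads (0.40 ± 0.10, adjusted p = 0.0419), and with beads stood at 0.37 ± 0.10 (adjusted p = 0.0588). That call was lost when any array but the third wild-type bead array was left out (adjusted p of 0.0554 to 0.254), while without the third wild-type bead array Atp6ap1 passed with beads too (0.0299). Atp6v1a and Atp6v1b2, subunits of the catalytic ring, differed by 0.02 and 0.11 without beads and 0.01 and 0.03 with beads. Atp6v1h, a regulatory subunit, differed by -0.35 ± 0.14 (adjusted p = 0.235) and -0.02 ± 0.14 (adjusted p = 0.9995), and without the third wild-type bead array passed among unstimulated cells (0.0399).

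Of the 2 transcription factors that drive lysosomal genes, Tfe3 was higher in TLR9KO cells. Its signal was 9.09, 8.95 and 8.86 in unstimulated wild-type arrays, 9.07, 8.98 and 8.68 with beads, 9.48 and 9.58 in unstimulated TLR9KO arrays and 9.43 and 9.52 with beads. No TLR9KO array overlapped a wild-type array, and the difference was 0.56 ± 0.13 (adjusted p = 0.0274) without beads and 0.57 ± 0.13 (adjusted p = 0.0291) with beads. The call was lost without either unstimulated TLR9KO array or without the second or the third unstimulated wild-type array (adjusted p of 0.0869 to 0.214). With beads it was lost without any TLR9KO array, without the second wild-type bead array and without the second or the third unstimulated wild-type array (0.0505 to 0.230). Tfeb was 7.21, 6.90 and 7.21 in unstimulated wild-type arrays, 7.45, 7.55 and 7.15 with beads, 7.85 and 7.32 in unstimulated TLR9KO arrays and 7.44 and 7.66 with beads. The groups overlapped with beads, and the differences of 0.48 ± 0.19 (adjusted p = 0.193) and 0.17 ± 0.19 (adjusted p = 0.965) did not pass. These are RNA levels; the activity of both factors is known to depend on whether the protein is in the nucleus, which was not measured.

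Members with and without the longer promoter letters differed between the lines in both directions. The 9 members with the longer form GTCACGTG had a median difference of -0.10 among unstimulated cells, with 4 higher and 5 lower in TLR9KO, and of them Atp6v0d1 passed. The 25 members with a window but without that form had a median of -0.02, with 12 higher and 13 lower, and 8 of them passed. Of all genes, 8.25% passed among unstimulated cells, and 16.4% of those that pass the filter on low signal. These are descriptions, and neither the difference between the 2 sets of members nor that from these shares was tested.

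The 2 comparisons of the lines share no arrays, although they share the estimate of the spread. All 8 members that passed with beads also passed without them and had the same direction, and Atp6ap1 was the only member that passed in a single comparison. The sign of the difference was the same in 36 of the 39 members, against 14148 of all 19938 genes. Over all genes, 1190 passed in both comparisons, each with the same direction in both. Another 455 passed only without beads and 249 only with them. Without the third wild-type bead array, 15 members passed in each comparison, against 9 and 8 with all arrays. Of all 19938 genes, 3668 then passed without beads and 4171 with beads, against 1645 and 1439 with all arrays. Among unstimulated cells the removal of that array changes only the estimate of the spread. With beads the median difference then moved from 0.01 to -0.14, with 14 members higher and 25 lower, and Manba and Naglu passed as well (adjusted p = 0.0278 and 0.0328), while the directions of Arsg, Ids and Atp6v0d1 were the same (-3.21, 1.42 and -0.71). Asah1 went from 0.62 to 0.33 and Cd68 from -0.17 to -0.33. Cln3 went from 0.08 to -0.20 and Ppt1 from 0.11 to -0.10, and none of these passed.

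Scaling and the choice of fit ended some of the calls. Centring each array on its median ended those of Gaa, Neu1, Npc2 and Tfe3 in both comparisons and that of Atp6ap1, which left Arsg, Ids, Atp6v0d1 and Gusb, 4 members in each. Centring on the 75th percentile ended both calls of Gusb. With beads, a fit on the compared groups alone left only Arsg, Ids and Atp6v0d1. An intensity trend ended the Neu1 call with beads, while Psap and Cd63 passed in that fit. Neu1 kept its call with beads in 7 of the 19 alternative settings. The number passing among all genes fell too. It was 756 without and 704 with beads after centring on the median, against 1645 and 1439. With beads it was 480 in the fit on the compared groups.

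**Figure D3:**
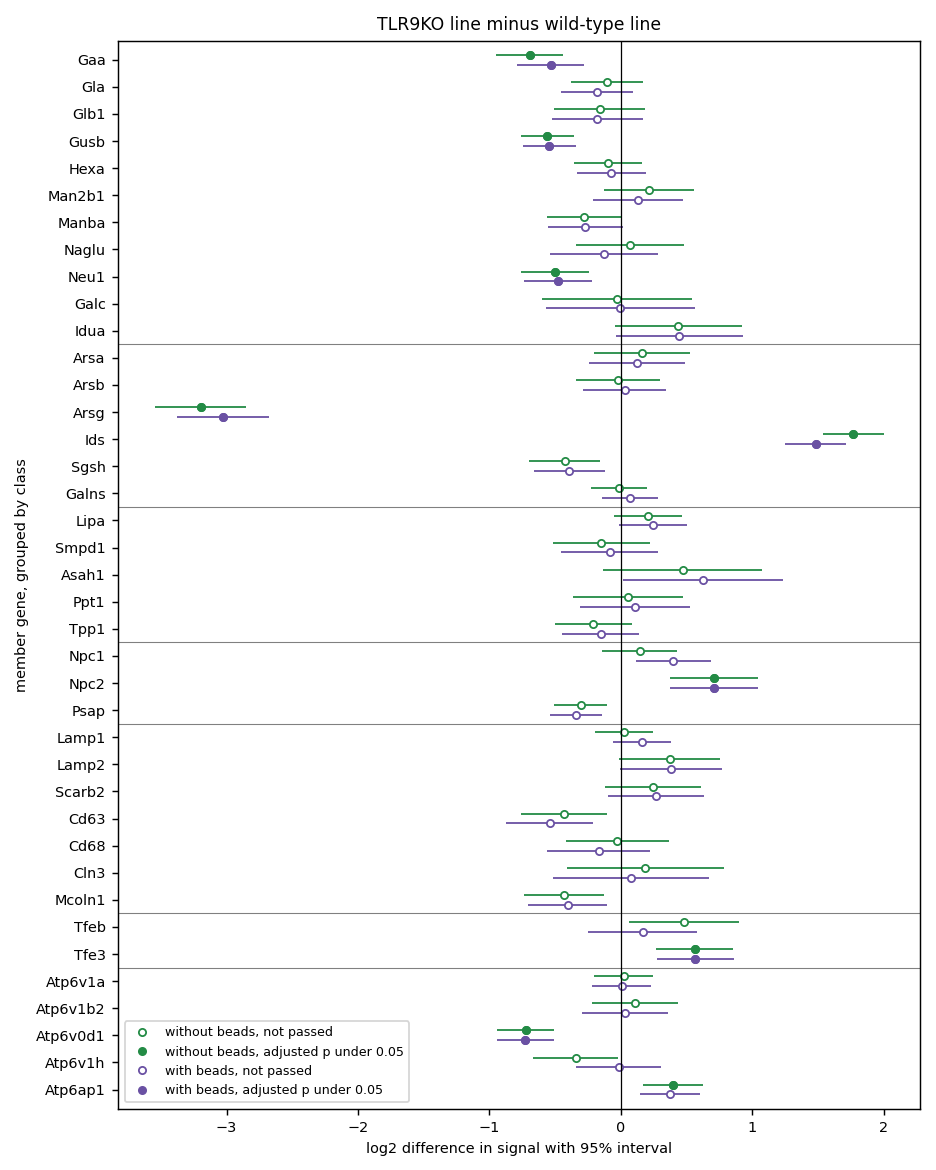
Log2 difference of TLR9KO minus wild type with its 95% interval for each of the 39 members, by class, without beads (green) and with beads (purple), filled where the adjusted p is under 0.05. Arsg lies at -3.20 and -3.03 and Ids at 1.77 and 1.48, while every other member lies between -0.73 and 0.71.

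The beads changed no member detectably in either line at 4 h. None of the 39 passed in wild-type cells, in TLR9KO cells or in the difference between the responses, and 0.0% of all genes passed in each of these comparisons. At an unadjusted p under 0.05, limma gave 0 members in each, against 167, 359 and 172 of all genes. Fitting array weights, which did not converge, gave 14 members higher with beads in wild-type cells and 0 in the others, and no other setting gave any. In wild-type cells the changes ran from -0.22 for Asah1 to 0.28 for Tfeb, with a median of -0.06, and 13 members were positive and 26 negative. This balance rested on the third wild-type bead array: without it 29 were positive and 10 negative, with a median of 0.07. The changes then ran from -0.09 to 0.39. At an unadjusted p under 0.05 in limma there were then 5 members, against 2293 of all 19938 genes, and no member passed. With all arrays, the 95% intervals of all 39 members lay between -0.77 and 0.65, so a doubling or a halving of any member lies outside its interval.

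Members with the largest changes in their class, with all arrays included, show how small the responses of wild-type cells were. Manba, beta-mannosidase, was 9.10, 9.17 and 9.05 in unstimulated arrays and 9.07, 8.96 and 8.72 with beads, a change of -0.19 ± 0.11, with overlapping groups. Scarb2 was 8.72, 9.10 and 8.62 against 8.82, 8.65 and 8.49 (-0.16 ± 0.14). Npc1, the membrane protein that exports cholesterol, was 10.19, 10.11 and 10.08 against 10.20, 10.06 and 9.81 (-0.11 ± 0.11). The third bead array was the lowest value in each of these. Atp6v1h was 8.91, 9.17 and 8.92 against 9.00, 8.96 and 8.61 (-0.14 ± 0.13), and Arsg changed by -0.14 ± 0.14, also with its lowest value in that array. Asah1 changed by -0.22 ± 0.24, and Tfeb had the largest positive change, 0.28 ± 0.17, both with overlapping groups. All 7 members had an adjusted p of 1. Without the third bead array Manba changed by -0.09, Scarb2 by -0.08 and Atp6v1h by -0.02. Npc1 then changed by 0.0005, Arsg by 0.04, Asah1 by 0.07 and Tfeb by 0.39. In that fit Naglu (0.36) and Cln3 (0.35) had the largest changes after Tfeb.

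TLR9KO cells gave changes of the same small size, from -0.18 for Manba to 0.19 for Atp6v1h, with a median of -0.04, 10 members positive and 29 negative. The 95% intervals of the 39 members ran from -0.73 to 0.61. Manba was 8.90 and 8.76 in unstimulated arrays and 8.53 and 8.76 with beads (-0.18 ± 0.14). Ids had the largest change among the sulfatases, at -0.16 ± 0.11, and its bead arrays both lay below its unstimulated arrays. Npc1 was 10.18 and 10.36 against 10.34 and 10.50 (0.15 ± 0.14), and Cd63 changed by -0.14 ± 0.16. Atp6v1h was 8.58 and 8.72 against 8.75 and 8.93, higher in both bead arrays (0.19 ± 0.16). Lipa changed by 0.09 ± 0.12 and Tfe3 by -0.06 ± 0.14. The bead arrays did not overlap the unstimulated arrays in Ids, Atp6v1h, Lipa and Cd63, but none of the 7 passed, each with an adjusted p of 1. Over all 39 members, 3 were higher and 5 lower with beads without overlap, against 2636 and 2231 of all 19938 genes.

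The response of TLR9KO cells minus that of wild-type cells ran from -0.31 ± 0.26 for Tfeb to 0.33 ± 0.20 for Atp6v1h, with a median of 0.01, and 24 members were positive and 15 negative. Without the third wild-type bead array the balance turned to 8 positive and 31 negative, with a median of -0.09. In that fit 3 members had an unadjusted p under 0.05 in limma, against 976 of all 19938 genes, and no member passed. Ids differed by -0.29 ± 0.15, with changes of 0.13 in wild-type and -0.16 in TLR9KO cells, and Npc1 by 0.26 ± 0.18. Naglu, whose signal was 8.45, 8.36 and 8.36 in unstimulated wild-type arrays, 8.76, 8.75 and 8.12 with beads, 8.50 and 8.42 in unstimulated TLR9KO arrays and 8.30 and 8.53 with beads, differed by -0.20 ± 0.26. In Naglu the first and second wild-type bead arrays were the highest of all and the third the lowest. Asah1 differed by 0.16 ± 0.38 and Cd68 by -0.14 ± 0.25. The intervals of 38 of the 39 members lay within a factor of 2 either way, and the exception was Asah1, whose interval reached 1.01.

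**Figure D4:**
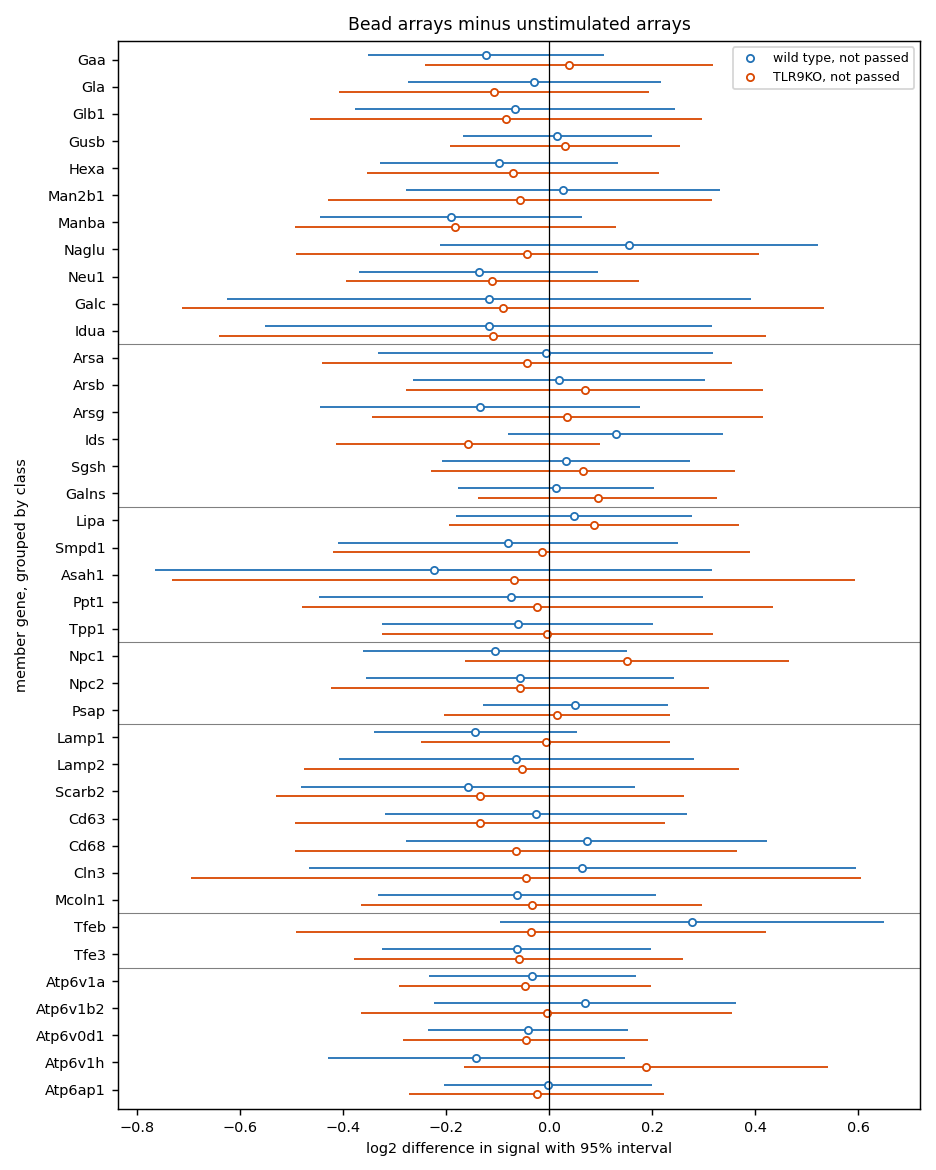
Log2 change with beads and its 95% interval for each of the 39 members, by class, in wild-type (blue) and TLR9KO (orange) cells, with open points because none passed. Every point lies between -0.22 and 0.28 and no interval reaches -0.77 or beyond, except that of Asah1 in wild-type cells, which ends there.

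Other genes of the lysosome, listed with the members but not among them, differed between the lines too. Of 90 listed genes 81 were measured, and the other 9 were not analysed here. In unstimulated cells 3 were higher and 13 lower in TLR9KO, against 3.79% and 4.46% of all genes. With beads 3 were higher and 12 lower, against 3.82% and 3.4%. Among the genes that pass the filter on low signal, 16.4% without and 13.9% with beads passed in either direction. The difference between the 81 genes and these shares was not tested. The median differences of the 81 genes were 0.03 and 0.01. None of the 81 passed in a bead comparison.

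Of the 15 other subunits of the proton pump, 4 were lower and none passed as higher in unstimulated TLR9KO cells, and 3 were lower with beads. Atp6v0d2, the second form of the d subunit, which is prominent in osteoclasts and macrophages, was 11.82, 11.65 and 11.74 in unstimulated wild-type arrays and 10.65 and 10.41 in unstimulated TLR9KO arrays, without overlap. It was lower, with differences of -1.21 ± 0.17 (adjusted p = 0.00213) and, with beads, -1.22 ± 0.17 (adjusted p = 0.00210), so that both forms of the d subunit were lower in the knockout line. Atp6v0a1, of the membrane sector, was lower, with differences of -0.89 ± 0.13 and -0.91 ± 0.13 (adjusted p = 0.00319 and 0.00295), and Atp6v1f, of the catalytic sector, with -0.51 ± 0.10 and -0.70 ± 0.10 (0.0155 and 0.00312). Atp6v0a2 passed without beads (-0.44 ± 0.11, adjusted p = 0.0370) and not with them (-0.35 ± 0.11, adjusted p = 0.113).

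Of 18 other soluble hydrolases and cofactors, 2 were higher and 2 lower without beads, and 1 was higher and 2 lower with them. Hgsnat, the acetyltransferase of heparan sulfate breakdown, which spans the lysosomal membrane, was 11.46, 11.40 and 11.38 in unstimulated wild-type arrays and 9.38 and 9.42 in unstimulated TLR9KO arrays. It was far below the wild-type arrays in all 4 TLR9KO arrays, with differences of -2.01 ± 0.13 (adjusted p = 1.60e-05) and -1.998 ± 0.127 (adjusted p = 1.84e-05). Naaa, an acid amidase that hydrolyses N-acylethanolamines, was lower, with differences of -1.12 ± 0.10 and -1.08 ± 0.10 (adjusted p = 1.21e-04 and 1.50e-04). Gm2a, the activator protein with which beta-hexosaminidase degrades GM2 ganglioside, was higher by 0.51 ± 0.09 and 0.47 ± 0.09 (0.00676 and 0.0108). Prcp, a carboxypeptidase, was higher without beads (0.72 ± 0.16, adjusted p = 0.0212) and did not pass with them (0.51 ± 0.16, adjusted p = 0.0985).

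Among 23 other membrane proteins and transporters, 3 were lower and none passed as higher in both comparisons: Laptm4b at -1.65 ± 0.14 and -1.78 ± 0.14 (adjusted p = 9.13e-05 and 5.87e-05), the nucleoside transporter Slc29a3 at -1.42 ± 0.16 and -1.24 ± 0.16 (5.33e-04 and 0.00124), and the sialomucin Cd164 at -0.78 ± 0.16 and -0.72 ± 0.16 (0.0168 and 0.0265). The 25 genes of enzyme sorting and lysosome regulation held the largest of these differences. Igf2r encodes the large mannose 6-phosphate receptor that brings new hydrolases to the endosome. It was 8.97, 9.22 and 8.96 in unstimulated wild-type arrays and 6.69 and 6.86 in unstimulated TLR9KO arrays, a difference of -2.28 ± 0.18 (adjusted p = 5.56e-05), and differed by -1.96 ± 0.18 with beads (adjusted p = 1.47e-04). Sort1, sortilin, a second sorting receptor, was lower, with differences of -1.95 ± 0.18 and -1.92 ± 0.18 (1.50e-04 and 1.78e-04). Rragd, a GTPase of the complex that senses amino acids at the lysosome and a known target of TFEB, was lower, with differences of -1.95 ± 0.24 and -1.87 ± 0.24 (8.51e-04 and 0.00110). In the Ragulator scaffold of the same complex, Lamtor4 was lower, with differences of -0.96 ± 0.13 and -1.04 ± 0.13 (0.00142 and 9.77e-04), while Lamtor2 was higher by 1.14 ± 0.14 and 0.95 ± 0.14 (8.92e-04 and 0.00263).

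Of the 15 other lysosome genes that passed with beads and the 16 that passed without them, Igf2r, Sort1, Rragd, Lamtor4, Laptm4b, Slc29a3, Hgsnat, Naaa and Atp6v0d2 kept their calls under all 19 alternative settings in both comparisons. Centring on the median ended the calls of Atp6v1f, Cd164 and Gm2a in both comparisons. It also ended those of Atp6v0a2 and Prcp without beads and those of Lamtor2 and Rptor with beads. With beads, a fit on the compared groups alone ended the calls of Atp6v0a1, Atp6v1f, Cd164, Gm2a and Rptor. The mean of all probe sets ended that of Atp6v0a2 without beads. Leaving out single arrays ended the calls of Atp6v0a2 (any array but the first and the third wild-type bead array, adjusted p up to 0.259), Cd164 (any unstimulated array without beads, up to 0.171, and 5 arrays with beads, up to 0.268), Atp6v1f (4 of the 5 unstimulated arrays, up to 0.119, without beads), Prcp (4 of the 5 unstimulated arrays, up to 0.151), Gm2a (either TLR9KO array of the comparison, up to 0.0689 without and 0.138 with beads), Rptor (6 arrays, up to 0.217) and, without beads, Atp6v0a1 (the first unstimulated TLR9KO array, 0.0508).

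**Figure D5:**
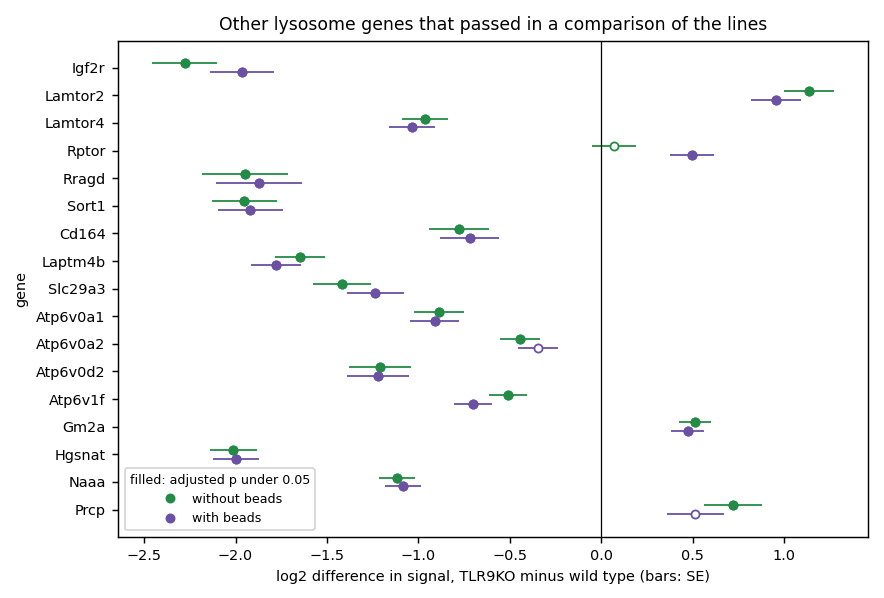
Log2 difference of TLR9KO minus wild type, with bars of 1 SE, for the 17 other lysosome genes that passed in at least 1 comparison of the lines, without beads (green) and with beads (purple), filled where the adjusted p is under 0.05. Igf2r lies farthest to the left at -2.28 without beads, and 4 of the 17 genes, Lamtor2, Gm2a, Prcp and Rptor, lie to the right of 0 in both comparisons.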

How the data were processed

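The authors deposited 1 table of log2 signals for 28853 probe sets on 10 arrays, made with RMA, per the submitters' processing notes, with no version or build stated there. Of the probe sets, 21789 were annotated to 1 gene, 1621 to several and 5443 to none; symbols were updated by Entrez ID for 21698, and the probe set with the highest mean stood for each of 19938 genes. Differences were fitted with limma 3.58.1 in R 4.3.3 on 4 group means over all arrays (6 residual and 3.23 prior degrees of freedom), two-sided, with Benjamini-Hochberg adjustment over all genes and a threshold of 0.05. The number of arrays limits the precision. The fit was tested on simulated data. Members, gene lists and tests were chosen with earlier results of these data known. Array values are printed for members that passed and, where none of a class passed, for its largest difference; of other lysosome genes, up to 4 per list and comparison are named. Alternatives were an intensity trend, robust variances, quantile normalization, array centring (median, 75th percentile), a filter at a mean of 6, the mean of all probe sets, compared groups only, array weights and leaving out each array.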

Additional observations from a re-analysis of the deposited data

How the results depend on the processing

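No paired analysis was possible because groups share no replicate number in the labels. The comparisons of the lines had 9 members past the threshold without beads and 8 with beads. Centring on the median left 4 and 4, in each comparison 1 higher and 3 lower. Quantile normalization gave 14 and 16, array weights 20 and 20, and a fit on the compared groups alone 13 and 3. Of all genes, 1645 passed without beads and 1439 with beads, and 756 and 704 after centring on the median. Quantile normalization gave 2483 and 2263 of all genes, array weights 4451 and 6083, and the compared groups alone 3262 and 480. Leaving out each array in turn gave 3 to 15 in both; both highest counts came without wild-type bead array 3, and the lowest, 3 and 4, without unstimulated TLR9KO array 1 or 2 and, with beads, 4 and 3 without TLR9KO bead array 1 or 2. Counts of 5 came without unstimulated wild-type array 2 or 3 and, with beads, without wild-type bead array 2. No bead comparison had a member past the threshold under any setting except array weights in wild-type cells, which gave 14, all higher, with 9174 genes passing in all; that fit of the weights did not converge. The cause of these shifts was not tested. No member that passed changed its direction under any of the 19 settings, and Arsg, Ids and Atp6v0d1 kept their calls under all of them in both comparisons of the lines. Scaling moved the median of all genes by less than 0.1.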

Other observations

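Members on the X chromosome that passed were all higher in the knockout line. Of the 5 members there, Gla, Ids, Lamp2, Tfe3 and Atp6ap1, 3 passed as higher and none as lower in unstimulated cells, with a median of 0.40, and 2 passed as higher with beads, with a median of 0.38. Of the 34 other members 1 passed as higher and 5 as lower in each comparison. Over the 19168 genes of the other chromosomes, Y left out, 3.79% passed as higher and 4.54% as lower without beads. With beads it was 3.86% and 3.44%. Over all 742 genes of the X chromosome, 3.91% passed as higher and 2.56% as lower without beads, with a median of 0.03, and 2.96% and 2.56% with beads, with a median of -0.01. Among the 271 of these genes with a mean signal of at least 6, which every member has, 9.59% passed as higher and 5.9% as lower without beads, and 6.64% and 5.17% with beads. This grouping was chosen after the values were seen and was not tested.

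The enzymes that take heparan sulfate apart in sequence differed between the lines in opposite directions. Of 8 such enzymes 7 were measured. In unstimulated cells Arsg (-3.20), Hgsnat (-2.01) and Gusb (-0.56) were lower and Ids (1.77) was higher, while Sgsh (-0.43), Naglu (0.07) and Idua (0.44) did not pass. With beads the values were -3.03, -1.998, -0.54, 1.48, -0.39, -0.13 and 0.44 in the same order. These genes were grouped after their values were seen, and the group was not tested.

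The 6 nearest measured genes, 3 on either side in the gene order of GRCm38.p6, were examined for each of the 9 members that passed. Around Ids, Gusb, Neu1 and Tfe3 none passed in either comparison. Around Arsg none passed in unstimulated cells, where they ran from -0.50 for Slc16a6 to 0.50 for Gna13, and with beads Gna13 passed as higher (0.69 ± 0.13, adjusted p = 0.0122 in limma). Around Atp6ap1, Dnase1l1 (1.48 without and 1.38 with beads) and Taz (0.50 and 0.48) passed as higher, while the other 4 did not pass and included Fam50a at -0.47 and -0.33. Around Gaa, Tbc1d16 (-0.62 and -0.52) and Card14 (-0.96 and -1.03) passed as lower. The other neighbours of Gaa did not pass, among them the member Sgsh at -0.43 and -0.39 and Cbx8 at -0.13 and 0.09. Around Atp6v0d1, Ripor1 passed as lower (-0.69 and -0.67). Around Npc2, Abcd4 passed as higher without beads (0.36) and did not pass with them (0.23). Of all genes, 8.25% passed without and 7.22% with beads. Among the genes that pass the filter on low signal it was 16.4% and 13.9%. The difference between the neighbours and these shares was not tested.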
